A study of Mus musculus with 4 samples.

Results

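The receptors described here are 9 genes by which liver sinusoidal endothelial cells take up material from blood: Stab1, Stab2, Lyve1, Mrc1, Fcgr2b, Clec4g, Cd209b, Scarb1 and Cd36. They were taken by symbol from the 31053 features of mouse single-cell libraries of non-parenchymal liver cells, and all 9 were present. They were measured in endothelial cells, taken as cells with at least 10 unique molecular identifiers (UMIs) per 10000 from the sum of Kdr, Ptprb, Cdh5 and Egfl7. These numbered 6601 of the 10772 cells used. The cells were split by whether they held at least 1 UMI of Rspo3 or Wnt9b, secreted activators of Wnt signalling made by the endothelium at the central vein, or 0. The sides are called Rspo3/Wnt9b-positive and Rspo3/Wnt9b-zero.

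The study fed mice a methionine- and choline-deficient diet with 45% fat, and 0.1% L-methionine in the drinking water (MCDHF), for 8 weeks to induce steatohepatitis, and also sampled mice in recovery. All mice carried Col1a2-CreERT2, a tamoxifen-inducible Cre driven by a promoter of collagen-producing mesenchymal cells, and a tdTomato reporter allele. Reporter-positive and reporter-negative cells were sequenced apart. In the positive fraction endothelial cells are a minority, and the reporter is not driven by an endothelial promoter. The groups used had 1 library each: the positive fraction in recovery (reporter written R27RtdTomato in the labels), the negative fraction in recovery (R29RtdTomato) and the negative fraction at MCDHF injury (R28RtdTomato). The design text names the reporter R26RtdTomato, and whether these are different alleles was not given. The sources used here do not state the number or age of the animals, how long recovery lasted or any tamoxifen schedule. Counts of the positive injury library were not analysed here.

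Sinusoidal endothelial cells line the liver's capillaries, have open pores and no complete basement membrane, and clear waste macromolecules, immune complexes and modified lipoproteins from blood by receptor-mediated endocytosis. Cargo enters through clathrin-coated pits, passes through early endosomes and is degraded in lysosomes. The cells differ along the axis from portal to central vein, and the endothelium of the central vein itself is of a large-vessel kind that lacks much of this scavenging equipment.

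The promoters of the receptors with the clearest family or neighbour relation are shown, since their levels are set side by side in what follows. Each window covers 250 bases before and 50 after the start of the gene (RefSeq, GRCm38.p6, 300 bases, 5′ to 3′ on the gene's strand). Capitals mark matches on either strand to 5 short motifs: AGGAAG as the ETS motif, TGCTGA as a MAF half-site, ACAATG as the SOX motif, AGATAA as the motif of the GATA family and TATAAA as the core promoter's TATA box. The Stab1 window lies at chr14:31168592-31168891 and that of Stab2 at chr10:87007893-87008192, both on the minus strand. The Clec4g window lies at chr8:3720602-3720901 and that of Cd209b at chr8:3926792-3927091, both on the minus strand, with 197003 bases between the genes.
Stab1: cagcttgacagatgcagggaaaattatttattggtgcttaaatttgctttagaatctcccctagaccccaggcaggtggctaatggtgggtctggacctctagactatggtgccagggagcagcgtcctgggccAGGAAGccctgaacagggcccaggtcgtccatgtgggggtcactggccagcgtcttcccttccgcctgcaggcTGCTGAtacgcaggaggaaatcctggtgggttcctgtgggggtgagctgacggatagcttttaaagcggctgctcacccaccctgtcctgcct
Stab2: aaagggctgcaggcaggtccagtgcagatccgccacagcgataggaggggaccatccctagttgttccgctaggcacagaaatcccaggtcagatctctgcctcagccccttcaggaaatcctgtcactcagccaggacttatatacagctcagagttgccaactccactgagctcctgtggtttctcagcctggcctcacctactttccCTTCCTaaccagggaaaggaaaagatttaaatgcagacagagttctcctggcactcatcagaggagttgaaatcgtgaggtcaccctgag
Clec4g: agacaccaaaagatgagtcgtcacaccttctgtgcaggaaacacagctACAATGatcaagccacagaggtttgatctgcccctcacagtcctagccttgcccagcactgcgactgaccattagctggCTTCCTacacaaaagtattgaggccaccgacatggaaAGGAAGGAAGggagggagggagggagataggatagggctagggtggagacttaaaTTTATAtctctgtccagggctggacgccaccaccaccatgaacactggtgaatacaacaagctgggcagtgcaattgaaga
Cd209b: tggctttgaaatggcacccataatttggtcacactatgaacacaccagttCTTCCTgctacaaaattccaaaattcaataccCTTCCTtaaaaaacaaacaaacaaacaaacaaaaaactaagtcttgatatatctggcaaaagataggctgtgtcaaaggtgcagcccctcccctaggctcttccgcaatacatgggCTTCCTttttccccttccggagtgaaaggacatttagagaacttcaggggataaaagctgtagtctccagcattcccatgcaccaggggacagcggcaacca
Stab1 held 1 ETS and 1 MAF half-site match and Stab2 held 1 ETS match. Clec4g held 3 ETS matches, of which a pair overlap, 1 SOX match and 1 TATA box match, and Cd209b held 3 ETS matches. Among all 32851 promoter windows of the same length, the ETS letters were found in 35.4%, the MAF half-site in 19.5%, the TATA box in 13.6%, the SOX letters in 12.6% and the GATA letters in 11.2%. A match describes the letters only. Of the other members, Mrc1 held 3 ETS matches, Cd36 held 1 MAF half-site and 1 SOX match, and Fcgr2b held none of the 5 motifs in its window. Lyve1 and Scarb1 are named only.

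The endothelial cells made up 12.4% of the 2380 cells used in the positive recovery library, 82.0% of 2949 in the negative recovery library and 71.4% of 5443 in the negative injury library. Rspo3/Wnt9b-positive and Rspo3/Wnt9b-zero cells numbered 90 and 206 in positive recovery, 314 and 2103 in negative recovery, and 656 and 3232 in negative injury. Just inside the gate, at 10 to 11 UMIs per 10000, lay 10, 1 and 4 cells in that order of libraries, and just outside, at 9 to 10, lay 4, 1 and 7. A single Rspo3 or Wnt9b UMI put 21 of 90, 110 of 314 and 220 of 656 cells on the positive side. Median depth was 9954 UMIs in positive and 8236 UMIs in zero cells of negative recovery, and 7102 and 5805 UMIs in those of negative injury. The gap was wider in positive recovery, at 20192.5 UMIs in positive and 6714 UMIs in zero cells. All 10 endothelial markers outside the gate were present at a level of 10 or more CPM (UMIs per 1000000) in each group. Pairs of the libraries used shared 3 to 8 barcodes. With 1 library per group there was no replicate check and no test was made. Intervals are 95% and cover counting error only.

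The positive recovery library stood apart. Its Rspo3/Wnt9b-positive endothelial cells had a summed level of 9 stellate and mesenchymal markers of 15332 CPM, with all 9 at 10 CPM or more, against 26.3 CPM in the same cells of negative recovery, where Col1a1, Pdgfrb and Lum were at 0, and 379 CPM in those of negative injury. Of these 90 cells, 62 (68.9%) also passed a mesenchymal gate, and their Vwf level, a large-vessel marker, was 67.4 CPM against 890.4 CPM in negative recovery. Among its 206 zero cells 28.6% also passed a mesothelial and 12.1% a macrophage gate. For the positive side of that library the markers go against the name central vein endothelium, and it is called by its rule. The results turn on the negative libraries.

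Before the comparisons, the members were set against cells that should lack them. In duct cells of the negative libraries the 9 members stood between 0 and 44.8 CPM, and Scarb1, which many cell types make, was highest there at 26.5 CPM in recovery and 44.8 CPM at injury. The share of cells with a UMI, after thinning each cell to 2000 UMIs, was 0% to 6.37% in duct cells of negative recovery and 0% to 10.1% in those of negative injury, at median depths of 11340 and 15027 UMIs. Cd209b on the positive side was at that background, with 0 of 296 thinned cells in recovery, which the exact Clopper-Pearson interval bounds at 1.24%, and 0.477% of cells at injury. In the 42 cells of the macrophage gate in positive recovery, Mrc1 was at 551 CPM and Cd36 at 241 CPM, while Clec4g was at 5.30 CPM and Cd209b at 0.

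**Figure D1:**
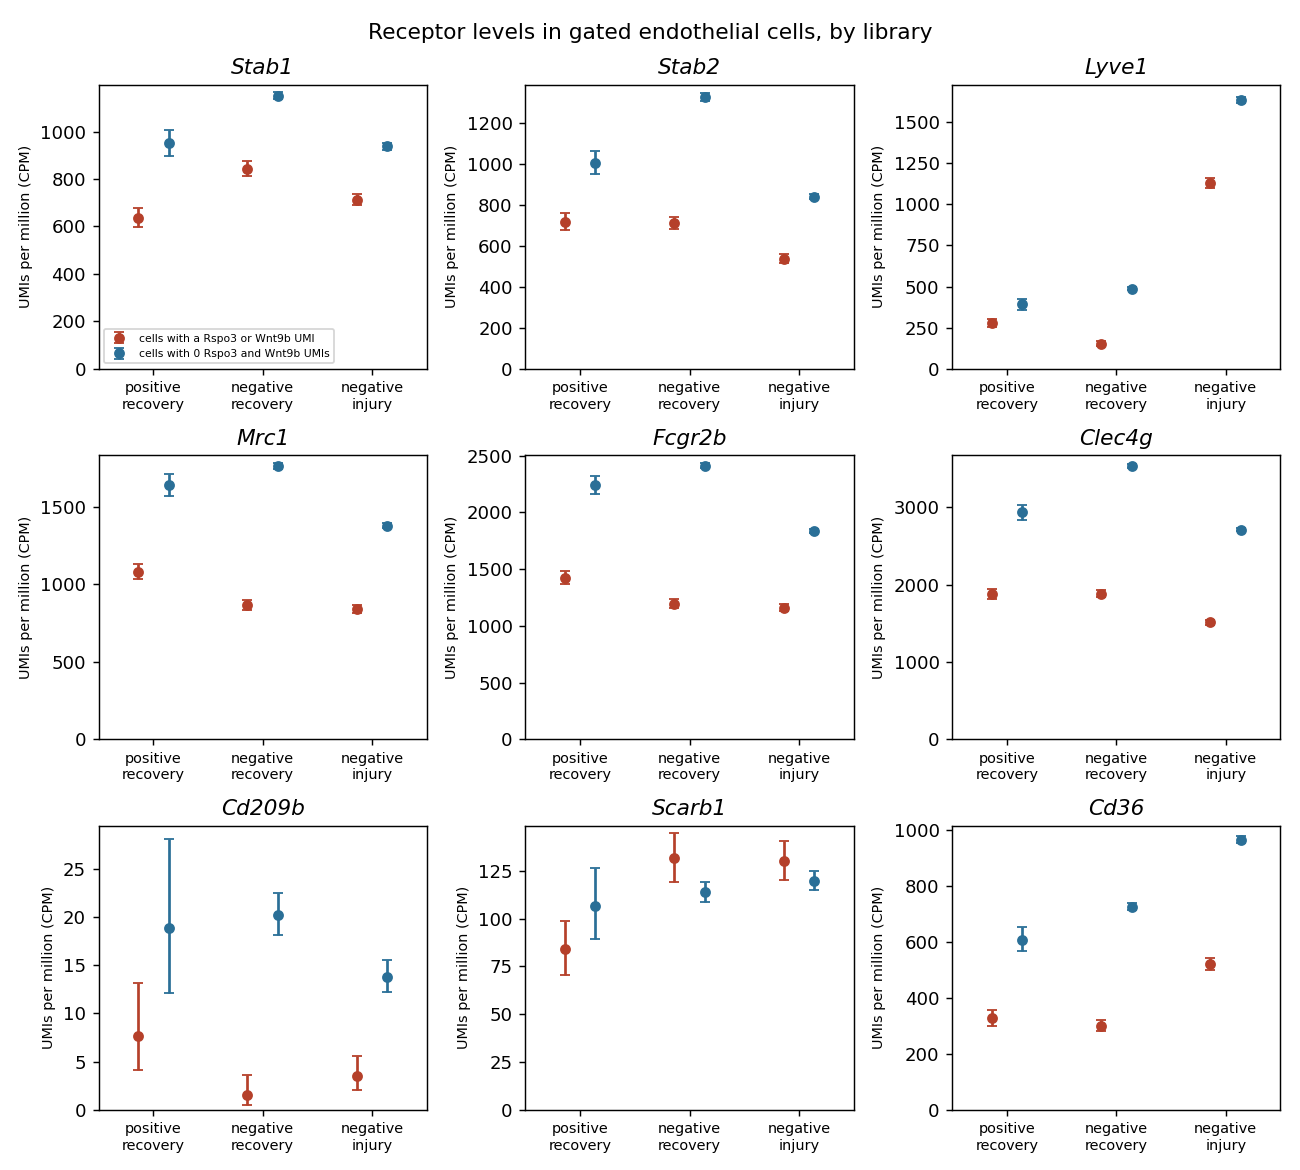
Level of each receptor (CPM, vertical axis from 0) in gated endothelial cells of the 3 libraries, split into cells with and without a Rspo3 or Wnt9b UMI. Points are summed counts and bars exact Poisson 95% intervals. Lyve1 is highest in the injury library on both sides, and Scarb1 lies between 84.0 and 131.7 CPM throughout.

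Stab1 and Stab2 encode stabilins, large scavenger receptors that clear modified lipoproteins, and, in the case of Stab2, hyaluronan. Stab1 (ENSMUSG00000042286) lies on the minus strand of chr14:31139013-31168641 (mm10, GENCODE M21) and overlaps Nt5dc2 on the other strand. On the Rspo3/Wnt9b-positive side it was at 636.5 CPM in positive recovery, 842.3 CPM in negative recovery and 712.6 CPM in negative injury. Zero cells had 949.9, 1152 and 937.8 CPM in the same order of libraries. Within every library the positive side was the lower one. Stab2 (ENSMUSG00000035459, chr10:86841198-87008025, minus strand) was at 718.2 CPM in positive recovery, 712.2 CPM in negative recovery and 537.9 CPM in negative injury cells of the positive side. Its levels in zero cells were 1006, 1328 and 841.2 CPM in that order. Positive recovery and negative recovery overlapped on the positive side, and every other neighbour in the order of Stab2 levels was separated by its counting interval.

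Lyve1 (ENSMUSG00000030787, chr7:110850607-110863239, minus strand) encodes a hyaluronan receptor of lymphatic and sinusoidal endothelium, and was the receptor with the largest contrast between stages among the 9. Positive-side cells had 279.2 CPM in positive recovery, 152.0 CPM in negative recovery and 1132 CPM in negative injury. The level in zero cells was 391.3, 487.4 and 1633 CPM in the same order. Both injury groups lay above all 4 recovery groups, and no neighbouring intervals overlapped. Of 6 lymphatic markers, 1 reached 10 CPM in negative recovery zero cells: Flt4, also on the list of endothelial markers, at 755 CPM. Ccl21a was at 0 there and Prox1, the lymphatic master regulator, at 9.35 CPM. In negative injury zero cells 2 reached it, Flt4 at 733 CPM and Prox1 at 23.6 CPM.

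Mrc1 (ENSMUSG00000026712, chr2:14229392-14332057, plus strand) encodes the mannose receptor, which takes up collagen chains and mannose-ended glycoproteins. It was at 1081 CPM in positive recovery, 867.3 CPM in negative recovery and 840.3 CPM in negative injury on the positive side, where the negative libraries overlapped. In zero cells it was at 1638, 1761 and 1377 CPM in that order. Fcgr2b (ENSMUSG00000026656, chr1:170958617-170976547, minus strand) encodes the inhibitory Fc receptor with which sinusoids remove small immune complexes. Positive-side cells were at 1425, 1194 and 1158 CPM, again with overlap of the negative libraries, and zero cells at 2239, 2412 and 1837 CPM. For both genes the positive side of each library was below all 3 zero groups.

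Clec4g (ENSMUSG00000074491, chr8:3707064-3720651, minus strand) encodes the lectin LSECtin, and was at 1881 CPM in positive recovery, 1882 CPM in negative recovery and 1513 CPM in negative injury on the positive side, where the recovery libraries coincided. Zero cells had 2935, 3539 and 2712 CPM. Cd209b (ENSMUSG00000065987, chr8:3917655-3926844, minus strand) encodes SIGN-R1, a lectin related to human DC-SIGN. Its counts were low, at 7.69 CPM, 1.56 CPM and 3.50 CPM in positive-side cells and 18.9 CPM, 20.2 CPM and 13.8 CPM in zero cells in the same order, the positive-side value of negative recovery resting on 5 UMIs. Neighbouring Cd209b intervals overlapped all along its order. Cd209b is one of a family of similar genes, and the counting of reads shared between copies is not stated in the sources used here.

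Scarb1 and Cd36 encode class B scavenger receptors: Scarb1 the receptor for high-density lipoprotein, Cd36 a receptor for long-chain fatty acids and oxidised lipoproteins. Scarb1 (ENSMUSG00000037936, chr5:125277087-125341094, minus strand) was at 84.0, 131.7 and 130.2 CPM in positive-side cells of positive recovery, negative recovery and negative injury, and at 106.9, 113.8 and 120.0 CPM in zero cells. All neighbouring intervals overlapped. Cd36 (ENSMUSG00000002944, chr5:17781690-17888801, minus strand) was at 326.5, 299.6 and 519.4 CPM on the positive side and at 607.4, 725.3 and 964.3 CPM in zero cells. The injury library was the highest on each side.

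The first comparison set recovery against injury in Rspo3/Wnt9b-zero cells of the negative fraction. Lyve1 was lower in recovery and the other 8 receptors differed by less than 2-fold. The Lyve1 log2 ratio, with 10 CPM added to both levels, was -1.72 (-1.77 to -1.68), and its level was 3.35-fold higher in the injury library. Lyve1 was thus 1 of 9 members past 2-fold, a share to be read against 2.85% of 8730 features lower in recovery by 2-fold, 0.745% higher and 3.6% in either direction. Stab2 was highest in the ratio at 0.65 (0.61 to 0.69), followed by Fcgr2b at 0.39, Clec4g at 0.38, Mrc1 and Cd209b at 0.35 and Stab1 at 0.29. Scarb1 was at -0.07 (-0.18 to 0.04) and Cd36 at -0.41 (-0.45 to -0.36). The members' median was 0.35, and that of all features 0.17. The TMM factors of edgeR corresponded to a log2 shift of -0.17 in this comparison, which left all 9 signs as they were.

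**Figure D2:**
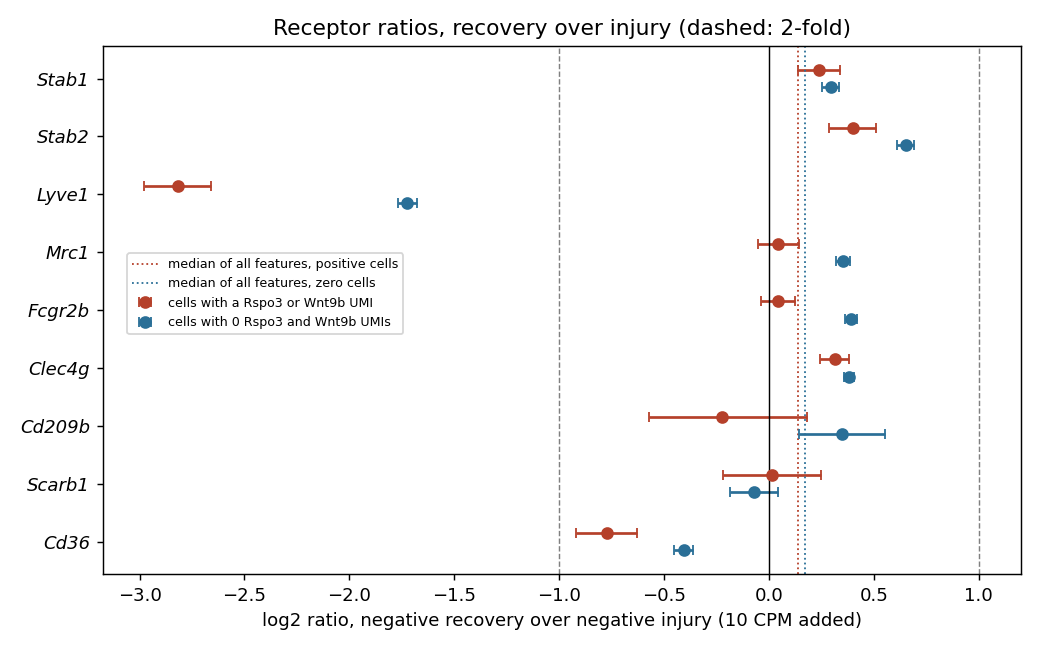
Log2 ratio of each receptor, negative recovery over negative injury (horizontal axis, 10 CPM added), for cells with and without a Rspo3 or Wnt9b UMI, with 95% counting intervals. Dashed lines mark 2-fold and dotted lines the median of all features. Lyve1 lies past 2-fold on both sides, at -2.82 and -1.72, and the other receptors lie within it.

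In Rspo3/Wnt9b-positive cells of the negative fraction, Lyve1 was again the member past 2-fold, at a log2 ratio of -2.82 (-2.98 to -2.66) and 7.44-fold higher at injury. That is 1 of 9, where 3.01% of 8959 features were lower in recovery by 2-fold, 1.46% higher and 4.48% in either direction. Cd36 was next at -0.77 (-0.92 to -0.63). The remaining 7 ratios lay between -0.22 for Cd209b and 0.40 for Stab2, the intervals of Mrc1, Fcgr2b, Cd209b and Scarb1 including 0. The members' median was 0.04, and that of all features 0.14. The TMM factors corresponded to a log2 shift of -0.18 here, with which Mrc1, Fcgr2b and Scarb1 were below 0, at -0.13, -0.13 and -0.15. The Lyve1 ratio was -2.82 in positive-side cells and -1.72 in zero cells, and this difference was not tested. The positive sides differed in make-up, with a Vwf UMI in 135 of 314 cells in recovery and 214 of 656 at injury. Without Vwf-bearing cells the positive-side Lyve1 ratio was -2.18, and with at least 2 Rspo3 and Wnt9b UMIs it was -3.83.

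The Lyve1 contrast was seen in the share of cells as well as in the sum. After thinning to 2000 UMIs, 17.9% of positive-side cells had a Lyve1 UMI in recovery (13.7% to 22.8%) and 61.8% at injury (57.9% to 65.7%). Of the zero cells 43.9% had one in recovery (41.7% to 46.2%) and 80.2% at injury (78.7% to 81.6%). Without thinning the shares of positive-side cells were 32.2% in recovery and 74.5% at injury, and those of zero cells 66.4% and 86.4%. In duct cells the thinned share was 0.265% in recovery and 0.615% at injury. At least 2 of the 2000 UMIs were Lyve1 in 7.09% of positive-side cells in recovery against 45.6% at injury, and in 22.5% of zero cells in recovery against 63.7% at injury. Zero cells had a median of 2.24 Lyve1 UMIs per 10000 in recovery, with quartiles of 0 and 6.38, against a median of 12.6 at injury, with quartiles of 4.52 and 23.0.

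**Figure D3:**
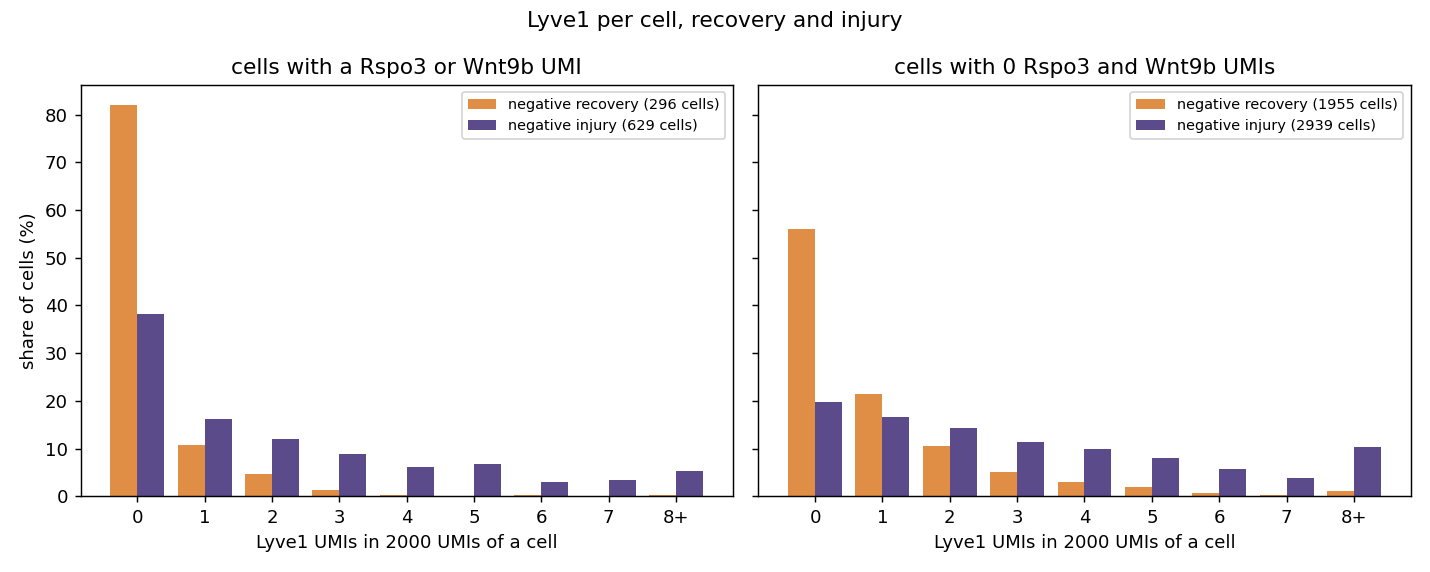
Share of endothelial cells (vertical axis, %) with each number of Lyve1 UMIs among 2000 UMIs of the cell (horizontal axis), in negative recovery and negative injury, for cells with and without a Rspo3 or Wnt9b UMI. In zero cells 56.1% had no Lyve1 UMI in recovery, and the injury bars are spread over 0 to 8 or more.

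Marker levels of other cells also differed between these libraries. In zero cells the summed level of 12 macrophage markers was 23.9 CPM in recovery, with Adgre1, Marco and Timd4 at 0, and 113 CPM at injury, with none at 0; 1 and 4 of them reached 10 CPM. The 12 hepatocyte markers summed to 316 CPM in recovery and 682 CPM at injury, and the 8 leukocyte markers to 8.46 CPM and 4.43 CPM. The 10 large-vessel markers summed to 2049 CPM in recovery and 3565 CPM at injury, among them Selp, the adhesion receptor P-selectin, at 4.62 CPM and 204.6 CPM. At injury the 1067 zero cells with a Selp UMI had 1728 CPM of Lyve1 and the 2165 without had 1572 CPM, while Clec4g stood at 2305 and 2973 CPM and Cd209b at 6.33 and 18.5 CPM. With cells bearing a leukocyte or macrophage UMI, a Vwf UMI or another type's gate left out, Lyve1 remained the member past 2-fold, and over all 16 alternatives its ratio in zero cells stayed between -1.89 and -1.65.

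The second question was how the receptors differ between cells with and without central vein transcripts. In negative recovery, 8 of 9 receptors were lower in Rspo3/Wnt9b-positive than in zero cells, and 5 were past 2-fold: Lyve1 at a log2 ratio of -1.62 (-1.77 to -1.47), Cd209b at -1.39 (-1.63 to -1.04), Cd36 at -1.25 (-1.36 to -1.13), and Mrc1 and Fcgr2b at -1.01 each. Among all 8910 features 0.617% were lower by 2-fold, 2.14% higher and 2.76% in either direction. Clec4g at -0.91, Stab2 at -0.89 and Stab1 at -0.45 lay inside 2-fold, and Scarb1 was at 0.19 (0.00 to 0.38). The count depended on which cells were taken as positive: with at least 2 Rspo3 and Wnt9b UMIs it was 7, with Stab2 at -1.56 and Clec4g at -1.37 added, and without Vwf-bearing cells it was 1, Cd209b. The members' median was -1.01, and that of all features -0.01. In negative injury 0 of 9 were past 2-fold, where 0.211% of 8513 features were lower, 1.03% higher and 1.25% in either direction. There the ratios ran from -0.88 for Cd36 and -0.84 for Clec4g to -0.39 for Stab1 and 0.11 for Scarb1, with a median of -0.66 against 0.01 for all features. Lyve1 was at -0.53 (-0.58 to -0.47) in that library. The injury count also depended on the positive cells: with at least 2 Rspo3 and Wnt9b UMIs, Clec4g was at -1.15 and Cd36 at -1.12. For these other choices of cells the share of all features past 2-fold was not computed. The positive sides differed in signal, with Rspo3 at 2921 CPM in recovery and 985 CPM at injury. Whether the contrast differs between the libraries was not tested.

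**Figure D4:**
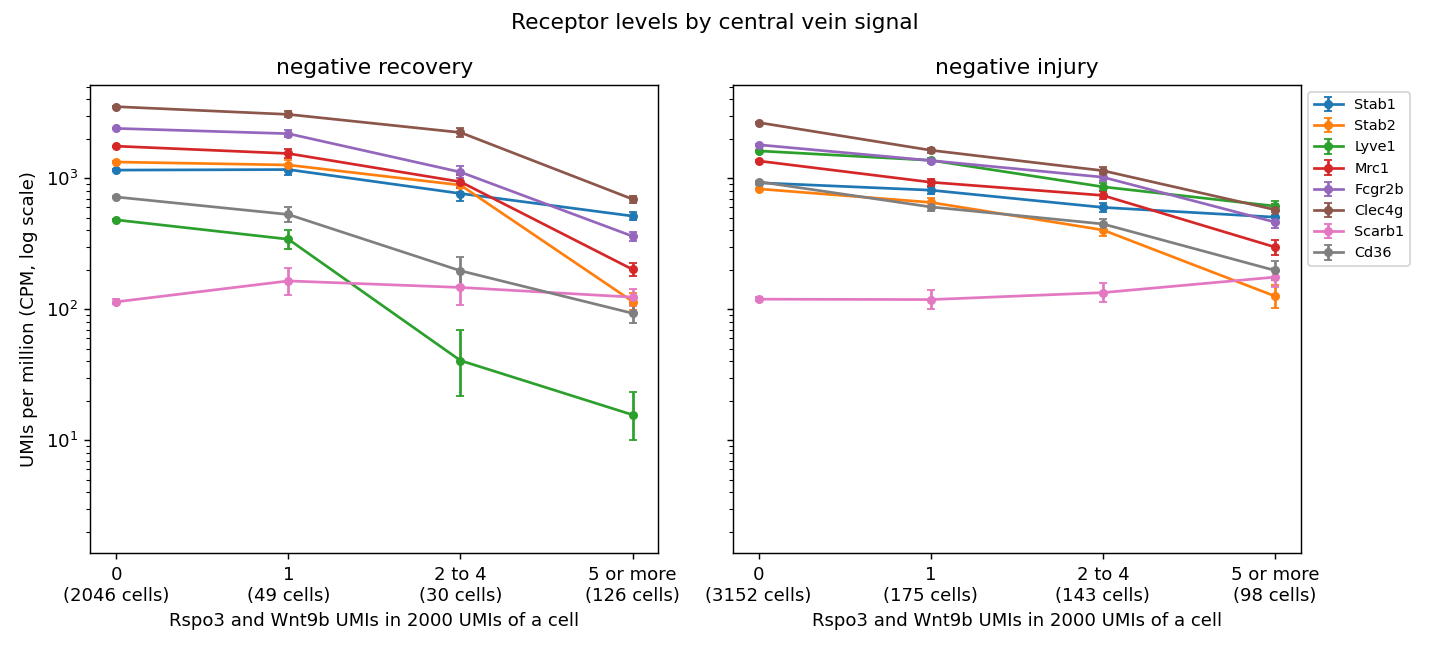
Level of 8 receptors (CPM, log axis) by the number of Rspo3 and Wnt9b UMIs among 2000 UMIs of a cell, in negative recovery and negative injury, with exact Poisson 95% intervals. Cd209b is left out for its low counts. In recovery Lyve1 stands at 15.7 CPM in the cells with 5 or more and at 482 CPM in those with 0, while Scarb1 stays between 114 and 165 CPM.

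Receptor levels also varied with the number of Rspo3 and Wnt9b UMIs, and in cells with 5 or more each receptor except Scarb1 was below its level in cells with 0. Cells thinned to 2000 UMIs were binned by Rspo3 and Wnt9b UMIs, and those with 5 or more numbered 126 in recovery and 98 at injury. At 5 or more, Stab2 was at 115 CPM in recovery against 1333 CPM at 0, and at 126 CPM against 831 CPM at injury. Mrc1 was at 202 against 1762 CPM in recovery and at 299 against 1359 CPM at injury. Lyve1 was at 15.7 CPM (10.0 to 23.3) against 482 CPM in recovery and at 614 CPM (560 to 671) against 1620 CPM at injury. Stab1 kept 44.6% of its level at 0 in recovery and 54.6% at injury, while Stab2 kept 8.61% and 15.2%. Scarb1 stood at 124 CPM against 114 CPM in recovery and at 176 CPM against 120 CPM at injury. Cd209b had no UMI in the highest bin of recovery. With 1 signal UMI, Stab1 was at 1167 CPM (1070 to 1272) and Stab2 at 1265 CPM (1163 to 1374) in recovery, intervals that include the levels at 0, while Lyve1 at 343 CPM (291 to 402), Clec4g at 3079 CPM (2919 to 3246) against 3526 CPM and Cd36 at 530 CPM (465 to 602) against 721 CPM were below theirs. So were Mrc1 at 1548 CPM (1435 to 1668) against 1762 CPM and Fcgr2b at 2194 CPM (2060 to 2336) against 2407 CPM. Cd209b had 0 UMIs in these 49 cells. Scarb1 was above its level at 0, at 165 CPM (129 to 207) against 114 CPM. At injury Stab1 and Stab2 were also below their levels at 0, at 813 CPM (763 to 865) against 926 CPM and 656 CPM (611 to 703) against 831 CPM.

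Vwf, a clotting factor stored in large-vessel endothelium, moved along the same bins, with 1707 CPM at 5 or more against 33.5 CPM at 0 in recovery, and 1347 against 71.8 CPM at injury. The 10 large-vessel markers were each at 10 CPM or more except Selp in recovery zero cells. They summed to 4325 CPM in positive-side cells and 2049 CPM in zero cells of recovery, and to 4891 CPM and 3565 CPM at injury. Not all of them rose: Ly6a, Cd34 and Ly6c1 were lower on the positive side in both libraries. In recovery Ly6a was at 556 CPM against 799 CPM in zero cells, and at injury Ly6c1 was at 36.6 CPM against 99.4 CPM. In the 135 recovery cells with both signal and Vwf, Lyve1 was at 13.3 CPM, Stab2 at 111 CPM and Stab1 at 497 CPM. In the 179 positive-side cells without Vwf, Lyve1 was at 299.7 CPM, Stab2 at 1353 CPM and Stab1 at 1210 CPM. With every cell bearing a Vwf UMI left out, Cd209b alone of the 9 was past 2-fold, Lyve1 was at -0.74, Stab2 at -0.03 and Stab1 at 0.03. After the same step in the injury library, Lyve1 was at -0.29 and Stab2 at -0.36. The part of Vwf-bearing cells in these ratios was not tested. Recovery over injury for Lyve1 on the positive side was -2.18 without these cells.

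**Figure D5:**
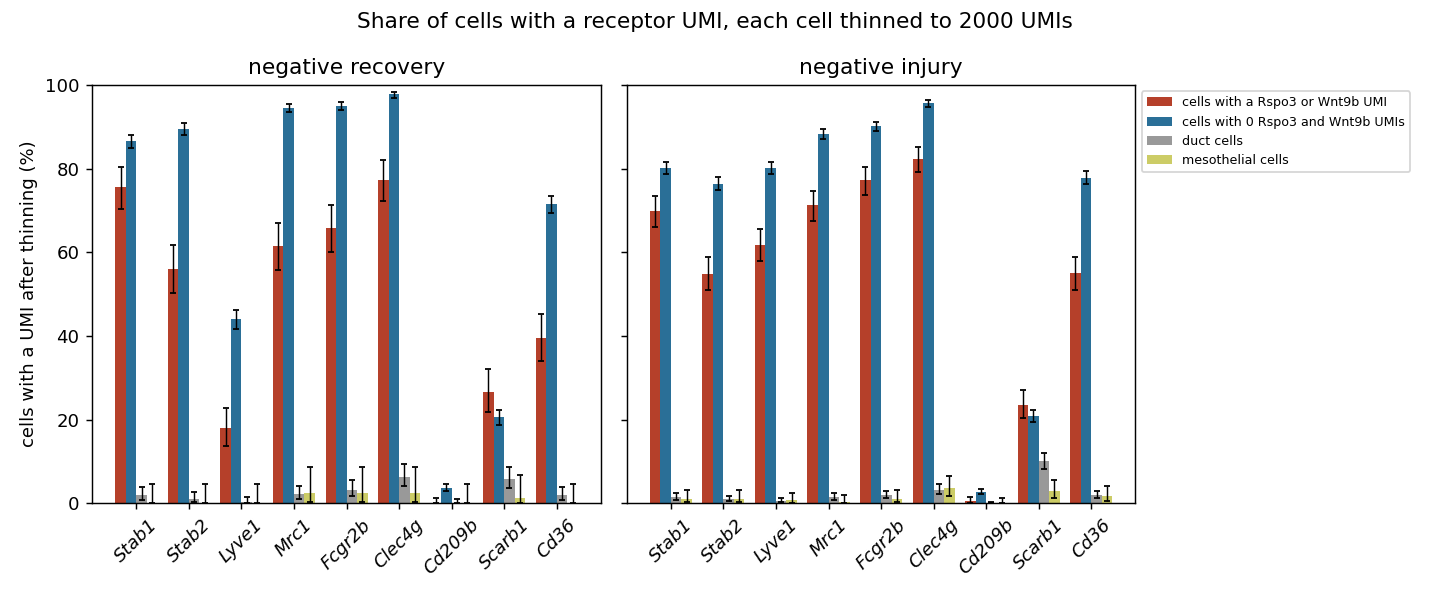
Share of cells with a UMI of each receptor (vertical axis, %) after thinning each cell to 2000 UMIs, in Rspo3/Wnt9b-positive cells, zero cells, duct cells and mesothelial cells of the negative libraries, with exact Clopper-Pearson 95% intervals. The intervals of both endothelial groups lie above those of duct cells for every receptor except Cd209b on the positive side.

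The receptors were found together in most cells. After thinning, at least 5 of the 9 were detected in 54.4% of positive-side cells in recovery and 65.8% at injury, and in 92.5% of zero cells in recovery and 90.3% at injury. A positive-side cell held a median of 13 receptor UMIs among 2000 in both libraries, and a zero cell 24 in recovery and 21 at injury. Clec4g was detected in 97.7% of zero cells in recovery and 95.6% at injury, Stab2 in 89.5% and 76.4%, Stab1 in 86.6% and 80.1% and Cd36 in 71.5% and 77.8%. Across positive-side cells the highest Pearson r between the levels of a receptor pair was 0.68 in recovery, for Stab2 and Clec4g over 296 cells, and 0.45 at injury, for Fcgr2b and Clec4g over 629 cells. Across zero cells it was lower, at 0.35 for Fcgr2b and Clec4g over 1955 recovery cells and 0.25 for the same pair over 2939 injury cells. The cells of each set share a library and a depth, and the positive-side cells span the range of Rspo3 and Wnt9b UMIs described above.

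Within zero cells, cells with UMIs of Wnt2 or Cdh13 and not of Efnb2, Dll4 or Msr1 were set against the opposite kind, as a split toward the central and portal sides that was chosen after values were seen. Cd209b was lower on the central side, at 14.6 CPM against 28.8 CPM portal in recovery and 4.80 CPM against 19.8 CPM at injury. Cd36 was also lower there, at 618 CPM against 836 CPM in recovery and 774 CPM against 1126 CPM at injury. Stab2 was higher centrally, at 1564 CPM against 1166 CPM in recovery and 934.2 CPM against 810.3 CPM at injury. Lyve1 differed little between the central and portal sides, with log2 ratios of -0.08 in recovery and -0.09 at injury. In recovery it was higher in the 442 cells with UMIs of neither kind, at 596 CPM (572 to 620). The central side there had 436 CPM and the portal side 462 CPM. At injury the 770 cells of neither kind had 1591 CPM, against 1567 CPM central and 1663 CPM portal.

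By the correlation over thinned zero cells of the negative libraries, the genes most like the summed receptors among 1559 were Selenop (mean r 0.56), the sinusoidal DNase gene Dnase1l3 (0.40), the lysosomal protease gene Ctsl (0.39), Igfbp7 (0.37) and the endocytic recycling gene Ehd3 (0.35). This is a description over 1955 and 2939 cells.

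The positive fraction was compared with the negative one in recovery. In zero cells 0 of 9 receptors were past 2-fold, where 0.23% of 9136 features were lower, 3.96% higher and 4.19% in either direction, and the ratios lay between -0.40 for Stab2 and -0.07 for Cd209b, with a median of -0.25. After leaving out cells that also passed another type's gate, 117 of the 206 zero cells remained, and Lyve1 stood at 466.8 CPM and Clec4g at 3448 CPM, against 495.3 and 3587 CPM in the 2037 such cells of the negative library. In positive-side cells 0 of 9 were past 2-fold, where 1.78% of 9397 features were lower, 5.83% higher and 7.61% in either direction. Lyve1 was highest there at 0.84 (0.59 to 1.08) and Scarb1 lowest at -0.59, beside the mesenchymal marker sums of 15332 and 26.3 CPM given above. Their part in these ratios was not tested. Within the positive fraction, positive-side over zero cells gave 0 of 9 past 2-fold, with a median of -0.60, where 1.88% of 9507 features were lower, 4.5% higher and 6.38% in either direction. The direction of this contrast depended on the endothelial gate. At 5 UMIs per 10000 it turned for 7 of 9 receptors, with ratios from 0.26 for Mrc1 to 0.43 for Stab2, and on Pecam1, Eng, Tie1 and Ramp2 7 of 9 were lower past 2-fold. The same gate at 5 UMIs per 10000 put 6 of 9 receptors lower past 2-fold in zero cells of the positive over the negative fraction. The share of all features past 2-fold was not computed under these other gates, so these counts have no background beside them.

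The wider uptake pathway was described from fixed lists, by features with at least 10 CPM in either group. In recovery over injury in zero cells, all 24 genes of the clathrin and early endosome list were measured and 0 were past 2-fold, with a median of 0.30 beside 0.17 for all features. Of 22 lysosomal genes 1 was lower and 0 higher: Ctsl, encoding cathepsin L, was at 1649 CPM in recovery and 3899 CPM at injury. Over all 8730 features of this comparison 2.85% were lower by 2-fold, 0.745% higher and 3.6% in either direction. Counts of 0 of 24 and 1 of 22 are near that background. Of 26 other scavenger and lectin receptors 9 were measured. Pla2r1, a mannose receptor family member, was higher in recovery at 129 CPM against 56.4 CPM, and Olr1, the lectin-like receptor for oxidised lipoprotein, was lower at 0.237 CPM against 22.0 CPM. Among 12 sinusoidal transcription factors 1 was higher, Sox18, at 313.4 CPM against 143.7 CPM. Of 14 measured genes of the capillarization list 3 were lower, Ly6c1 at 21.4 CPM against 99.4 CPM, Ly6a at 798.9 CPM against 1675 CPM and Vwf at 32.4 CPM against 74.97 CPM. Among 11 measured genes of fatty acid and lipoprotein handling 2 were lower, the cholesterol exporter gene Abca1 at 33.4 CPM against 192.8 CPM and the lipase gene Lpl at 1.36 CPM against 14.8 CPM.

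In positive-side over zero cells of negative recovery, 0 of the 24 clathrin and endosome genes were past 2-fold, with a median of -0.16, and 0 of the 22 lysosomal genes, with a median of -0.18. Over all features 2.76% were past 2-fold, so counts of 0 in lists of this size are near the background, and the median was -0.01. Below 0 were 17 genes of each list, with Ctsl, a lysosomal protease, lowest among the lysosomal genes at 863.8 CPM against 1649 CPM, a log2 ratio of -0.92. Of 8 measured other scavenger receptors 1 was lower, Msr1, the class A scavenger receptor, at 61.6 CPM against 249 CPM, and 1 was higher, Scarf2, at 22.5 CPM against 2.07 CPM. Of 14 measured capillarization genes 4 were higher, with Vwf at 890.4 CPM against 32.4 CPM, Edn1, the vasoconstrictor endothelin, at 669.6 CPM against 41.2 CPM, and Plvap, a diaphragm protein, at 719.4 CPM against 168.8 CPM, and 1 was lower, Lama4. Of 4 central genes 3 were higher and of 5 portal genes 3 were lower, with Wnt2 at 666.2 CPM against 255.2 CPM and Dll4 at 31.6 CPM against 125 CPM. At injury Msr1 was at 54.5 CPM in positive-side cells against 247 CPM in zero cells, and Ctsl at 1812 CPM against 3899 CPM.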

How the data were processed

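Liver cells were freed with Pronase (14 mg) and Collagenase (3.7 U) after EGTA perfusion, enriched on Nycodenz and made into 10x Genomics 3' v2 libraries, per the labels' protocols. The deposited matrices hold UMI counts per gene and barcode, written by software version 3.1.0, per the file headers. The builds mm10 and GRCh38, fastp and featureCounts 1.6.2 come from the submitters' processing notes, and the sources used here name neither aligner nor cell calling. tdTomato is not among the features, so fractions are as labelled.

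Cells had at least 500 UMIs, 300 genes and at most 20% mitochondrial UMIs, which left 2380, 2949 and 5443 cells of positive recovery, negative recovery and negative injury after removal of doublets called by Scrublet in scanpy 1.11.5. The caller marked 4.34%, 0.20% and 0.09% of cells, so it did not work in the negative libraries and doublets remain there. Counts were summed over cells and divided by the summed total (CPM), from library totals of 33442403, 27816768 and 49993127 UMIs over all barcodes. Ratios were log2 of CPM with 10 added, and 2-fold was the size rule. Backgrounds used features with at least 10 CPM in either group, and groups needed 30 cells. Duct, mesothelial, macrophage and mesenchymal gates used 10 UMIs per 10000. Intervals were exact (Poisson; Clopper-Pearson) and cover counting error only. Thinning used seed 7, and TMM factors edgeR 4.0.16. The ratio script was tested on simulated data. Of the gene IDs 30934 were in GENCODE M21, and 7 of 9 members had a RefSeq promoter (GRCm38.p6).

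No test was made, since each group was 1 library. All 9 members are always named, with up to 3 genes per direction furthest past 2-fold from each other list, and the 5 genes of most like pattern. Ccl21a, Prox1, Flt4, Selp and Clec4g by Selp UMI, and the marker genes at 0, were named outside that rule. So were Rspo3 by library, and Cd34, Ly6a and Ly6c1 among the large-vessel markers. The members, lists and tests were chosen with earlier results of these data known.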

Additional observations from a re-analysis of the deposited data

Results flagged for a closer look

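In recovery, 3 receptors had a positive over negative fraction ratio above 1 among Rspo3/Wnt9b-positive cells and below 1 among zero cells. The log2 ratio of Lyve1 was 0.84 in positive-side cells and -0.31 in zero cells. That of Mrc1 was 0.31 and -0.10, and that of Fcgr2b 0.25 and -0.11, in the same order. These signs changed with the processing. Without Vwf-bearing cells the positive-side ratios were -0.03 for Lyve1, -0.48 for Mrc1 and -0.49 for Fcgr2b, and without cells in another type's gate the zero-cell ratios were 0.11 for Mrc1 and 0.15 for Fcgr2b. Each ratio rests on 1 library per fraction, and the difference between the sides was not tested. The 90 positive-side cells of the positive fraction included 62 that passed a mesenchymal gate.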

How the results depend on the processing

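No paired analysis was possible because each group had 1 library, and no library could be left out in turn. In recovery over injury among zero cells, Lyve1 was the 1 member past 2-fold under all 16 alternatives. Among positive-side cells the count was 2, with Cd36 added, when positive cells needed at least 2 Rspo3 and Wnt9b UMIs and when the split was made after thinning. For positive-side over zero cells of negative recovery, the count of 5 became 7 both with at least 2 Rspo3 and Wnt9b UMIs and with the split after thinning, 2 with 50 CPM added, 3 with the gate at 5 UMIs per 10000, 3 for the mean over cells and 1 without Vwf-bearing cells, whose removal from the cells is part of that alternative. At injury the count of 0 became 1 with 1 CPM added, 2 with at least 2 signal UMIs, 2 with the split after thinning and 3 without cells bearing a leukocyte or macrophage UMI. In positive recovery the gate at 5 UMIs per 10000 turned the sign for 7 of 9 members, and the count became 7 with the gate on Pecam1, Eng, Tie1 and Ramp2, and 1 each with 1 CPM added, with the gate at 20 UMIs per 10000, with at least 2 signal UMIs and without leukocyte or macrophage UMIs. Positive over negative fraction gave 6 instead of 0 among zero cells with the gate at 5 UMIs per 10000, and 1 instead of 0 among positive-side cells with 1 CPM added, with at least 2 signal UMIs and with the split after thinning. The causes of these changes were not tested, and the share of all features past 2-fold was not computed under the alternatives. Of 990 member ratios under alternatives 936 kept their sign. The interval of the share of cells lay wholly above that of duct cells in 34 of 36 cases with cells thinned to 2000 or 1000 UMIs or not thinned. Leaving out cells in another type's gate, chosen after seeing the data, gave no value for 2 comparisons, since 27 positive-side cells remained in positive recovery. Cd209b, at 5 to 342 UMIs a group, is limited by depth.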
